A study of Homo sapiens with 24 samples.

Results

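The 7 genes described here encode 5 ligands of the epidermal growth factor (EGF) receptor, HBEGF, AREG, EREG, TGFA and BTC, and 2 receptors, EGFR and its partner ERBB2. They were taken by symbol from a table of 38849 genes, and all 7 were found. They were followed in HMLE, an immortalized human mammary epithelial line, in cells carrying RBMS3, an RNA-binding protein, and in control cells carrying LacZ, a bacterial enzyme gene. Cells of both lines were given 10 µg/mL actinomycin D, an inhibitor of transcription, and sampled at 0, 90, 180 and 360 min, with 3 libraries for each line and time, 24 in all. The growth medium of every group held 10 ng/mL human EGF, so the receptor had an added ligand throughout, along with serum, hydrocortisone and insulin. The labels name neither the vector and promoter behind RBMS3 or LacZ nor whether a line was 1 clone.

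The ligands are made as membrane-anchored precursors. Metalloproteases of the ADAM family cut them loose, and the freed ligand binds EGFR on the same or a neighbouring cell, which then pairs with itself or with ERBB2, a receptor with no ligand of its own. The activated pair signals through RAS and the kinase ERK, and in mammary epithelium amphiregulin is the ligand best known for driving growth of the ducts. The mRNAs of several of these ligands are short-lived and carry AU-rich elements, built on the pentamer ATTTA, in their 3′ untranslated regions.

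RBMS3 stood at 174 to 358 normalized counts in the 12 RBMS3 libraries and at 27.6 to 165 in the 12 LacZ libraries, and every RBMS3 library lay above every LacZ library. Libraries were read with QuantSeq, which sequences the 3′ end of polyadenylated RNA, and whether the introduced copy has that end is not given. The table implied 4405790 to 9727284 reads per library, and libraries of a group correlated across tested genes at a Pearson r of 0.937 or more, except for 2 pairs in LacZ cells at 0 min that involved replicate 2 (r = 0.909 and 0.911). Most epithelial markers were lower in the RBMS3 line, while basal keratins were still high in both lines before actinomycin D. At 0 min KRT5 averaged 2652 ± 199 in RBMS3 cells and 2702 ± 1043 in LacZ cells, and KRT14 averaged 6059 ± 139.6 in RBMS3 cells and 2555 ± 465 in LacZ cells. At the same time EPCAM averaged 0.707 ± 1.22 in RBMS3 cells and 1716 ± 30.3 in LacZ cells, ESRP1 was at 0 in RBMS3 cells and averaged 903 in LacZ cells, and 7 of 9 tested epithelial markers were lower and 1, the basal keratin KRT14, was higher. All 9 were lower at 90, 180 and 360 min. The epithelial list summed to 10651 to 10863 in RBMS3 libraries and 14028 to 14959 in LacZ libraries at 0 min. At 360 min the gap was wider, at 4420 to 4767 in RBMS3 libraries and 18579 to 19128 in LacZ libraries. All 11 mesenchymal markers were higher at each time, with a summed value at 0 min of 51277 to 55692 in RBMS3 libraries and 7466 to 8216 in LacZ libraries. At 360 min the sums were 44658 to 47314 in RBMS3 libraries and 9319 to 10238 in LacZ libraries. Defining markers of leukocytes, endothelium and fat were low or absent at 0 min, and the list summed to 29.9 to 46.8 in RBMS3 cells and 26.1 to 50.6 in LacZ cells. In each line 8 of 11 were at 0 in all 3 libraries, though not the same 8. CSF1R was at 0 in RBMS3 cells and averaged 17.2 ± 17.6 in LacZ cells, and ADIPOQ was at 0 in LacZ cells only. The leukocyte marker CD14 averaged 38.8 ± 10.2 in RBMS3 cells and 17.3 ± 6.33 in LacZ cells. Where a transcript differed between the lines, fewer cells of a type and less RNA per cell cannot be told apart in these bulk libraries, and the part of the mesenchymal shift in the results below was not tested.

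Because the study followed mRNA after transcription stopped, the AU-rich stretches of the 3′ untranslated regions are shown first. Each line is the 30-base window with the most ATTTA pentamers in the annotated transcript with the longest 3′ untranslated region (GENCODE 29), with the pentamers in capitals.
HBEGF: tATTTAttttattctatgtatgttaATTTA
AREG: gtaaataATTTATTTAatATTTAatggaag
EREG: tccATTTAtttcATTTAcaaaagATTTAtt
TGFA: gttaatATTTAatgttttaATTTAttttgt
EGFR: ttatATTTAcaattgatatgcATTTAccag
The windows lay at bases 604 to 633 of the 3′ untranslated region of HBEGF-201, 197 to 226 of AREG-201, 2559 to 2588 of EREG-201, 3357 to 3386 of TGFA-201 and 4625 to 4654 of EGFR-201. The short AREG region of 269 bases held 4 pentamers, or 14.9 per kilobase, a density above that of 99.7% of the 11089 tested genes with such a region. That is AREG-201, the minor transcript in these libraries; AREG-202, to which most AREG reads were assigned, has an annotated region of 87 bases that also holds 4. HBEGF held 5 pentamers in 1456 bases, EREG 20 in 3943, TGFA 13 in 3579, BTC 12 in 1918 and EGFR 9 in 6011. ERBB2 held none in 618 bases. The median over tested genes was 2 pentamers, or 1.73 per kilobase, and 74.8% held at least 1. The longer element TTATTTATT occurred once in EREG and once in TGFA and in 9.88% of tested genes. A match is a stretch of letters and says nothing of whether a protein binds there.

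The sequences upstream of the 3 ligand genes that fell in either line during the time course, HBEGF, AREG and EREG, are given as the 250 bases before the gene start (RefSeq, GRCh38.p14), 5′ to 3′ on the gene's strand. Capitals mark 4 motifs, each searched on both strands, and no matches overlapped in these sequences. The AP-1 motif was TGANTCA. The cyclic AMP response element was searched as its full palindrome, TGACGTCA. For the E-box of the kind bound by the ZEB and SNAI factors the letters were CACCTG. The TATA box was searched as TATAAA.
HBEGF, chr5:140346604-140346853, minus strand: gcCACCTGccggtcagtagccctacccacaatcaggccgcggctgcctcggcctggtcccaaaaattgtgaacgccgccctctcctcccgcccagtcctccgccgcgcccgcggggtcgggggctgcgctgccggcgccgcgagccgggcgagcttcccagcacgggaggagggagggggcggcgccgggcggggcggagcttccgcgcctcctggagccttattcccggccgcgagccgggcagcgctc
AREG, chr4:74444886-74445135, plus strand: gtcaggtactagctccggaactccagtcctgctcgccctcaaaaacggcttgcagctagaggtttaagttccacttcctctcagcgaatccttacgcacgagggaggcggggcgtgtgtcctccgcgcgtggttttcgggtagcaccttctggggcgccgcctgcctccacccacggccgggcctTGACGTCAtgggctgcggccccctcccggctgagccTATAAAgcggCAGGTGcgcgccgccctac
EREG, chr4:74364895-74365144, plus strand: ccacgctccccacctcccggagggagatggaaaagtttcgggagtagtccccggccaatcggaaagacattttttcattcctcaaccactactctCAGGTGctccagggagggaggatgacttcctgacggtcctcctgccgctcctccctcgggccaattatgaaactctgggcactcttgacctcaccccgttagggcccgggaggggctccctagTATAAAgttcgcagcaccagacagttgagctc
AREG and EREG each held a TATA box, 29 and 32 bases before the start, a motif found in 10.7% of 35116 promoters. The E-box stood in HBEGF, AREG, EREG and BTC and in 17.5% of all promoters. AREG alone of the 7 held TGACGTCA (1.65% of promoters), ERBB2 alone held TGANTCA (6.57%), and the promoters used for TGFA and EGFR held none of the 4. EREG, AREG and BTC lie side by side on chromosome 4, next to EPGN, which encodes a further ligand.

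Before actinomycin D, 4 of the 6 members that could be tested were lower in RBMS3 cells than in LacZ cells, and none was higher. TGFA and HBEGF showed the largest differences, AREG and EGFR stood near the middle of the members, and EREG and ERBB2 did not pass. Of all 12096 tested genes, 18.9% were lower at this time and 18.6% were higher. A gene was tested if its mean over all libraries was at least 10, which BTC missed, and it passed at a Benjamini-Hochberg adjusted p under 0.05 in limma on log2(normalized count + 1). No label ties the 3 libraries to separate cultures, and each p-value measures the spread between libraries, which may be technical.

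HBEGF encodes heparin-binding EGF-like growth factor, which binds EGFR and ERBB4 and is also the receptor for diphtheria toxin. At 0 min it was 114, 122 and 108 normalized counts in RBMS3 cells and 1283, 1610 and 1269 in LacZ cells. The lines were far apart and their libraries did not overlap. On the log2 scale the difference was -3.58 ± 0.157 (SE; limma, adjusted p = 2.2e-13), and the RBMS3 mean was 12.1-fold below the LacZ mean. After 90 min the RBMS3 libraries held 86.1, 92.3 and 77.5, against 639, 625 and 599.6 in LacZ cells. At 180 min they held 80.6, 114 and 76.4, against 685, 674 and 691, and at 360 min 84.4, 56.6 and 60.8, against 656, 588 and 587. No library of 1 line overlapped the other at any time, and the difference was -2.85, -2.93 and -3.18 at the 3 later times.

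AREG encodes amphiregulin. At 0 min it was 1921, 1643 and 1815 in RBMS3 cells and 4118, 3388 and 4045 in LacZ cells, a log2 difference of -1.10 ± 0.077 (SE; limma, adjusted p = 3.5e-10). At 90 min the values were 1139, 998 and 1101 in RBMS3 cells and 3103, 2958 and 2921 in LacZ cells. At 180 min they were 1029, 1085 and 1116 in RBMS3 cells and 3010.4, 2989 and 2973 in LacZ cells. The libraries of each line lay close together at both times, and the log2 difference between the lines was -1.47 at each. At 360 min AREG stood at 1135, 1204 and 1210.4 in RBMS3 cells and 3349.7, 3294 and 3288 in LacZ cells, a difference of -1.48. The lines did not overlap at any of the 4 times.

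TGFA encodes transforming growth factor alpha, a ligand of EGFR made by many epithelia. It was nearly absent from RBMS3 cells at 0 min, with 0, 3.77 and 3.08 normalized counts, which correspond to about 0, 4 and 3 reads, against 434, 400.0 and 392 in LacZ cells. The log2 difference of -7.25 (95% confidence interval -8.66 to -5.84; limma, adjusted p = 3.0e-08) depends on the constant added before the logarithm, and was -5.10 with a constant of 10. Later the RBMS3 libraries ranged from 1.01 to 20.9 and the LacZ libraries from 368 to 532, and the adjusted p of the difference was 1.7e-06 or less at each later time. The transcript thus separated the lines at all 4 times with no overlap.

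EREG encodes epiregulin, a ligand of EGFR and ERBB4. At 0 min it was 84.2, 209 and 261 in RBMS3 cells and 195, 245 and 225 in LacZ cells. The ranges overlapped and the log2 difference of -0.40 ± 0.40 (SE; limma, adjusted p = 0.47) did not pass. At 90 min the RBMS3 libraries held 50.9, 36.3 and 75.1 and the LacZ libraries 206, 136 and 178, a difference of -1.70 (adjusted p = 0.0026). At 180 min they held 77.9, 50.1 and 91.2 against 173, 212 and 167, and at 360 min 54.1, 60.7 and 25.4 against 226, 116 and 265. EREG was lower in RBMS3 cells at all 3 later times without overlap, by -1.35 at 180 min (adjusted p = 0.012, and 0.067 without RBMS3 replicate 2 of that time) and by -2.10 at 360 min (adjusted p = 3.2e-04).

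BTC encodes betacellulin, which binds EGFR and ERBB4. It ran from 0 to 14.4 normalized counts over the 12 RBMS3 libraries, with a median of 2.04 and 3 libraries at 0, and from 6.63 to 31.6 over the 12 LacZ libraries, with a median of 9.87. At 0 min the RBMS3 libraries held 5.02, 4.80 and 14.4 and the LacZ libraries 14.5, 6.70 and 21.5, so the groups overlapped. With a mean of 7.85 over all libraries it was not tested. A value of 0 allows up to 3 reads in a library, a limit that covers counting error only, and 1 read was worth 0.724 to 1.70 normalized counts.

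**Figure D1:**
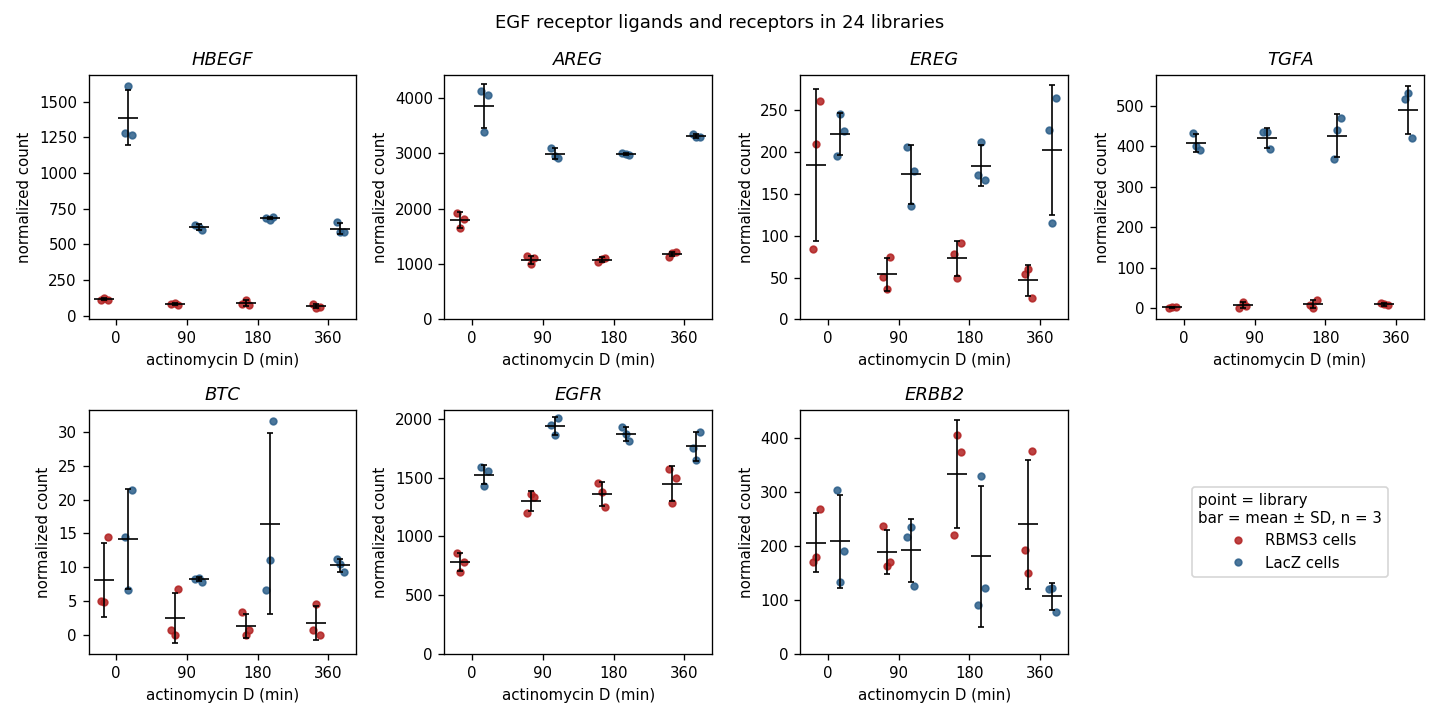
Normalized counts of the 7 genes (vertical axes, linear, each gene on its own scale) against time in actinomycin D in min, with RBMS3 libraries in red left of LacZ libraries in blue; points are libraries and bars the mean ± SD (n = 3). HBEGF, AREG, TGFA and EGFR show the 2 lines fully apart at every time, with TGFA between 0 and 20.9 in RBMS3 cells and between 368 and 532 in LacZ cells. ERBB2 scatters widely, and its lines overlap at 0, 90 and 180 min but not at 360 min.

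EGFR, the receptor shared by all 5 ligands, was lower in RBMS3 cells at 0 min, at 859, 701 and 787, against 1588, 1432 and 1553 in LacZ cells. The log2 difference was -0.97 ± 0.091 (SE; limma, adjusted p = 3.7e-08). The 2 lines came closer with time. At 90 min EGFR was 1199.9, 1359 and 1335 in RBMS3 cells and 1950.1, 1859 and 2005 in LacZ cells, a difference of -0.58 (adjusted p = 4.6e-05). At 180 min it was 1455, 1379 and 1252 against 1932, 1867 and 1813, a difference of -0.46 (adjusted p = 5.1e-04). At 360 min it was 1569.9, 1280.3 and 1493 against 1752, 1651 and 1889, where the groups did not overlap but the gap was -0.29 (adjusted p = 0.018). That last call was lost without RBMS3 replicate 2 (adjusted p = 0.12) or LacZ replicate 3 (adjusted p = 0.085) of 360 min.

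ERBB2 scattered widely within groups. At 0 min it was 169.7, 179 and 268 in RBMS3 cells and 303, 133 and 190.1 in LacZ cells, a log2 difference of 0.03 (95% confidence interval -0.85 to 0.91). At 90 min it was 236, 163 and 169 in RBMS3 cells and 216, 235 and 126 in LacZ cells. At 180 min it was 219.5, 406 and 374 against 90.2, 329 and 123, and at 360 min 193, 151 and 376 against 121, 122 and 77.8. Libraries of the 2 lines overlapped at 0, 90 and 180 min but not at 360 min. The differences of 1.06 and 1.08 at the last 2 times did not pass (limma, adjusted p = 0.061 and 0.054). They did pass when single libraries were left out, with an adjusted p as low as 0.0047 at 180 min and 0.024 at 360 min, both without LacZ replicate 2 of 180 min. At 180 min this was so for LacZ replicate 2 of 0 or 180 min, RBMS3 replicate 1 of 180 min or RBMS3 replicate 3 of 360 min, and at 360 min for LacZ replicate 1 or 2 of 0 or 180 min or RBMS3 replicate 2 of 360 min.

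The count of members lower in RBMS3 cells was 5 of 6 at 90, 180 and 360 min, where 15%, 16.8% and 17.7% of all tested genes were lower. The member added after 0 min was EREG, whose normalized counts moved apart from its reads, as given below. The LacZ libraries of these times could not be compared with reads. No member was higher, as 14.9%, 16.2% and 17.5% of all tested genes were. The median difference of the 6 tested members was -1.03, -1.59, -1.41 and -1.79 at 0, 90, 180 and 360 min, beside medians of 0.01, -0.02, -0.02 and -0.02 over all tested genes. TGFA, HBEGF, AREG and EGFR were lower at each time under each scaling of the libraries that was tried. These are counts over genes chosen with results of these data known.

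**Figure D2:**
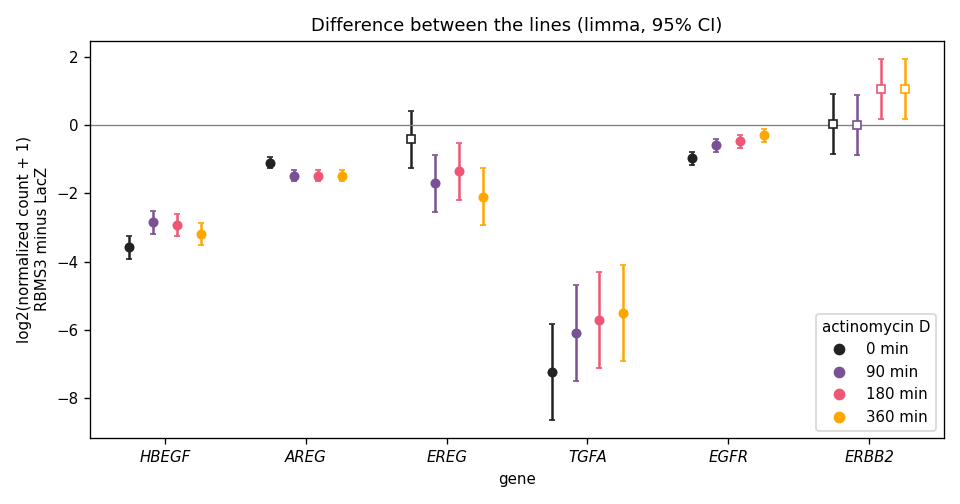
Difference between RBMS3 and LacZ cells in log2(normalized count + 1) for the 6 tested genes (vertical axis) at 4 times in actinomycin D (colours), with limma's 95% confidence interval; filled circles passed an adjusted p of 0.05 and open squares did not. TGFA lies between -7.25 and -5.51 and HBEGF between -3.58 and -2.85, while the EGFR points move up from -0.97 at 0 min to -0.29 at 360 min.

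The time course asks how each transcript's level moved once transcription was blocked. Total RNA was not measured, so a rise or fall is relative to the other transcripts, on the scale the authors' normalization set. In RBMS3 cells 3 of 6 tested members changed by 90 min, 3 by 180 min and 5 by 360 min, where 14.5%, 25.9% and 37.6% of all tested genes changed. In LacZ cells 3, 3 and 2 members changed, where 6.18%, 14.6% and 28.5% of all tested genes did.

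HBEGF fell in LacZ cells to 44.8 ± 1.44% of its 0 min mean by 90 min and then stayed near that level, at 49.2 ± 0.613% and 44.0 ± 2.84% at 180 and 360 min (SD, n = 3). The log2 changes there were -1.15, -1.01 and -1.18 against 0 min (limma, adjusted p = 9.3e-05, 1.5e-04 and 1.1e-05). In RBMS3 cells, which began from the lower level, HBEGF was at 74.6 ± 6.53%, 79.0 ± 18.1% and 58.8 ± 13.1% of its own 0 min mean. Only the change at 360 min passed there, at -0.78 (adjusted p = 5.5e-04). The changes at 90 and 180 min were -0.42 and -0.36 (adjusted p = 0.081 and 0.10). Without RBMS3 replicate 2 of 180 min both passed (0.049 and 0.018), and the 180 min change also passed with scaling to ribosomal protein genes (0.020) or to equal totals (0.026). The difference between the lines in the 90 min change, 0.73 ± 0.22 (SE), had an adjusted p of 0.063 and passed with a constant of 10 (adjusted p = 0.035), with a minimum mean of 50 (0.048) with scaling to ribosomal protein genes (0.0094), and without RBMS3 replicate 2 of 180 min (0.036) or RBMS3 replicate 1 of 360 min (0.039).

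AREG fell in both lines. In RBMS3 cells it was at 60.2 ± 4.07%, 60.0 ± 2.44% and 66.0 ± 2.33% of its 0 min mean at 90, 180 and 360 min, with log2 changes of -0.73, -0.73 and -0.60, each with a limma adjusted p of 3.5e-06 or less. In LacZ cells it was at 77.8 ± 2.50%, 77.7 ± 0.485% and 86.0 ± 0.882%, with changes of -0.36, -0.36 and -0.21 (adjusted p = 0.0074, 0.0031 and 0.043). Set against each other, RBMS3 minus LacZ, the changes at 90, 180 and 360 min differed by -0.37, -0.37 and -0.38 (SE 0.11 each), just past the threshold (limma, adjusted p = 0.0499, 0.043 and 0.033). With scaling to ribosomal protein genes these adjusted p were 0.50, 0.34 and 0.20, with no filter on low values 0.085, 0.075 and 0.059, and they ranged from 0.019 to 0.13 over the settings that leave out 1 library. The LacZ change at 360 min was close to the threshold as well, with an adjusted p of up to 0.16 when 1 library was left out, reached without LacZ replicate 1 of 0 min.

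EREG fell in RBMS3 cells to 29.3 ± 10.6%, 39.6 ± 11.4% and 25.3 ± 10.2% of its 0 min mean. The log2 changes were -1.66, -1.22 and -1.90 (limma, adjusted p = 0.0070, 0.029 and 7.8e-04), and the 180 min change was lost without RBMS3 replicate 2 or 3 of 0 min (adjusted p = 0.11 and 0.15) and without RBMS3 replicate 1 or 2 of 180 min (0.052 and 0.13). In LacZ cells EREG stood at 78.2 ± 15.96%, 83.0 ± 11.1% and 91.2 ± 34.9%, and none of the changes passed. The difference in change between the lines did not pass either, at -1.30, -0.95 and -1.69 (adjusted p = 0.22, 0.39 and 0.073). It passed at 360 min without RBMS3 replicate 1 of 0 min (0.014) or LacZ replicate 2 of 360 min (0.035).

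TGFA did not change beyond the test in LacZ cells, where it was at 103 ± 6.07%, 104 ± 12.9% and 120 ± 14.5% of its 0 min mean. In RBMS3 cells it was higher at 360 min than at 0 min by 1.99 ± 0.677 (SE; limma, adjusted p = 0.025), at 7.21 to 13.3 normalized counts against 0 to 3.77. That change, between counts of 7 to 14 reads and 0 to 4 reads, had an adjusted p of 0.066 with a constant of 10, 0.058 with scaling to ribosomal protein genes, 0.16 without RBMS3 replicate 1 of 0 min, and 0.085 and 0.054 without RBMS3 replicate 1 or 2 of 360 min. No change of ERBB2 passed in either line, though in LacZ cells the 360 min libraries lay below those of 0 min at a difference of -0.90 (adjusted p = 0.12), which passed with scaling to ribosomal protein genes (-1.43, adjusted p = 0.012).

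EGFR rose in RBMS3 cells, to 166 ± 10.97%, 174 ± 13.1% and 185 ± 19.2% of its 0 min mean at 90, 180 and 360 min. The log2 changes of 0.73, 0.80 and 0.89 had limma adjusted p of 1.1e-05, 1.8e-06 and 2.0e-07, and the direction held under each scaling tried. In LacZ cells EGFR was at 127 ± 4.82%, 123 ± 3.92% and 116 ± 7.85%. There the changes of 0.35 and 0.30 at 90 and 180 min passed (adjusted p = 0.027 and 0.034) and 0.21 at 360 min did not (0.094). The 90 min call was lost without LacZ replicate 2 of 0 min or LacZ replicate 1 or 3 of 90 min (0.084 to 0.10), and the 180 min call without LacZ replicate 2 of 0 min or any LacZ library of 180 min (0.056 to 0.10). Both were lost with scaling to equal totals (0.062 and 0.26), the 90 min call also with scaling to ribosomal protein genes (0.14 on the log2 scale, adjusted p = 0.38) and the 180 min call with no filter on low values (0.053). The LacZ values turned to -0.050 at 180 min (adjusted p = 0.75) and -0.32 at 360 min (0.012) with scaling to ribosomal protein genes, a scaling that moved the median of all tested genes to -0.31 and -0.49 in those comparisons. The difference between the lines in the change was 0.39 ± 0.13 at 90 min (adjusted p = 0.095), which passed with scaling to ribosomal protein genes (0.61, adjusted p = 0.0061). It was 0.51 ± 0.13 at 180 min and 0.68 ± 0.13 at 360 min (adjusted p = 0.022 and 0.0021). It passed under each alternative at 360 min, and at 180 min it was lost without RBMS3 replicate 2 of 0 min (0.063), RBMS3 replicate 1 of 180 min (0.061) or LacZ replicate 3 of 180 min (0.054).

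**Figure D3:**
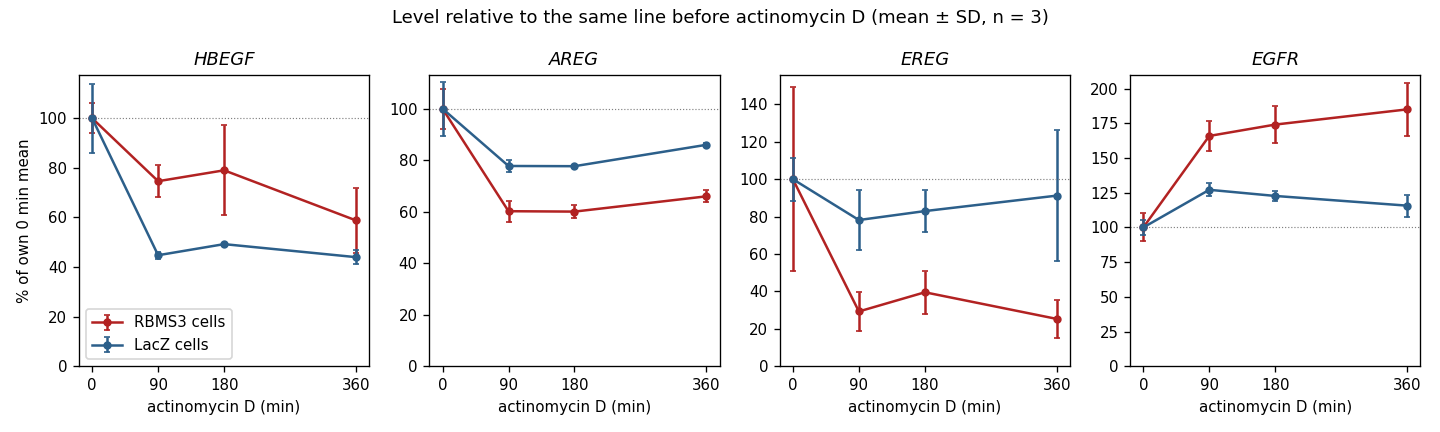
Normalized counts of HBEGF, AREG, EREG and EGFR as percent of the same line's mean at 0 min (vertical axis) against time in actinomycin D in min, RBMS3 cells in red and LacZ cells in blue; points are means ± SD (n = 3). HBEGF in LacZ cells is already at 44.8% by 90 min, AREG lies lower in RBMS3 cells than in LacZ cells at each later time, and EGFR reaches 185% in RBMS3 cells and 116% in LacZ cells at 360 min.

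Of the 6 members, 1 had a line difference in its change that passed at 90 min, 2 at 180 min and 2 at 360 min, where 5.23%, 6.36% and 7.77% of all tested genes did. Between 90 and 360 min, with both ends under actinomycin D, no member changed in either line by limma, where 16% of tested genes changed in RBMS3 cells and 8.5% in LacZ cells. At an unadjusted p under 0.05 HBEGF in RBMS3 cells was the 1 member below that level, at -0.36 (limma, adjusted p = 0.14), and it passed without RBMS3 replicate 1 of 360 min (0.031) and with scaling to ribosomal protein genes (0.0013) or equal totals (0.018). In the same interval edgeR on the estimated counts of the RBMS3 libraries called no member either, with HBEGF at -0.39 (adjusted p = 0.25), while it called 1425 genes higher and 1565 lower of 12364. No member differed between the lines in this later change, and 0.00827% of tested genes did. At an unadjusted p under 0.05 EGFR was the 1 member below that level there (limma, adjusted p = 0.71).

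The table is the authors' normalization of estimated counts, and for EREG and ERBB2 it moved apart from the reads. In the 12 libraries whose transcript files could be used, the table value over the RPM, the reads scaled by the library total, spanned 1.26 to 1.35-fold for AREG, HBEGF, TGFA and EGFR, but 5.47-fold for EREG and 2.71-fold for ERBB2. The scale also moved with time: EGFR was at 194 ± 5.16, 185 ± 9.75 and 176 ± 15.8 RPM in RBMS3 cells at 90, 180 and 360 min, a falling order, while its mean normalized counts were 1298, 1362 and 1448, a rising one. EREG was at 8.05 ± 0.801, 8.16 ± 0.503 and 8.58 ± 1.25 RPM in RBMS3 cells at 90, 180 and 360 min and at 27.5 ± 9.94 in LacZ cells at 0 min. Replicate 2 of LacZ cells at 0 min held 106 EREG reads, the fewest of that group, and had the group's highest table value of 245. The RBMS3 libraries at 0 min and the later LacZ libraries are not among the 12, so the wide EREG range in RBMS3 cells at 0 min was not compared with reads. ERBB2 was at 27.2 ± 4.35, 28.6 ± 4.63 and 28.996 ± 3.97 RPM in RBMS3 cells at 90, 180 and 360 min and at 26.2 ± 7.36 in LacZ cells at 0 min, a narrower spread than in the table. EREG reads were divided among 3 transcripts: EREG-201 took 49.2% to 100.0% of a library's reads, EREG-202 up to 49.8% and the intron-retaining EREG-203 up to 11.3%. HBEGF-201 and TGFA-201 took nearly all reads of their genes, and AREG-202 took 77.6% to 93.8% of those of AREG.

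**Figure D4:**
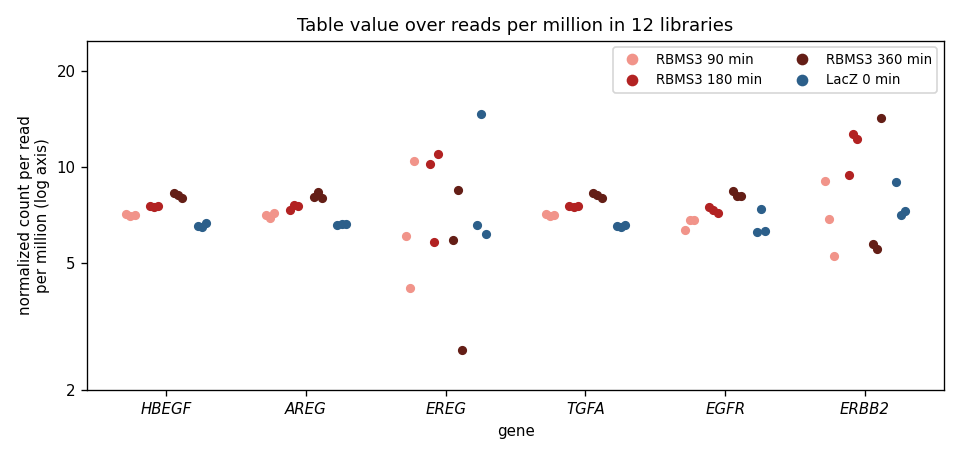
Normalized count divided by RPM (vertical axis, log scale) for 6 genes in the 12 libraries with usable transcript files, with RBMS3 cells at 90, 180 and 360 min in light to dark red left of LacZ cells at 0 min in blue; points are libraries. HBEGF, AREG, TGFA and EGFR stay within narrow bands, while EREG spans 5.47-fold and ERBB2 2.71-fold.

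The other ligands and receptors of the family gave the setting. EGF itself ranged from 0 to 0.724 in RBMS3 libraries and was at 0 in all LacZ libraries, ERBB4 was at 0 in all RBMS3 libraries and at most 0.829 in LacZ libraries, and NRG3 was at 0 throughout. Of the 8, 4 were tested, and at 0 min NRG1, a neuregulin that binds ERBB3 and ERBB4, was the 1 that passed, at 110.0 ± 58.4 in RBMS3 cells and 211 ± 34.6 in LacZ cells (limma, log2 difference -1.10, adjusted p = 0.028). At that time 18.9% of all tested genes were lower in RBMS3 cells and 18.6% were higher. ERBB3, the neuregulin receptor, was lower at 180 and 360 min by -3.08 and -2.76 (adjusted p = 0.019 and 0.033), at 7.02 ± 2.76 and 21.1 ± 21.6 in RBMS3 cells against 75.6 ± 56.6 and 111 ± 22.6 in LacZ cells. It did not pass at 0 min. Over all times ERBB3 ranged from 3.88 to 183 in RBMS3 libraries and from 24.2 to 141 in LacZ libraries, so the highest value was in an RBMS3 library. EPGN, the neighbour of EREG on chromosome 4, was at 56.5 ± 11.6 in RBMS3 cells and 36.3 ± 15.98 in LacZ cells at 0 min and did not pass (log2 difference 0.72, adjusted p = 0.44). Across the 4 times EPGN ranged from 47.7 to 175 in RBMS3 libraries (median 67.8) and from 18.0 to 631 in LacZ libraries (median 47.5).

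All 13 genes listed for shedding and trafficking of the ligands were tested. In RBMS3 cells before actinomycin D 4 of them were higher and 6 lower than in LacZ cells, with a median of -0.39, where 18.6% of all tested genes were higher and 18.9% lower. The split was 3 and 7 with scaling to ribosomal protein genes, under which 1338 of all genes were higher and 3833 lower. ADAM17, the main sheddase of HBEGF, AREG and TGFA precursors, was at 543 in RBMS3 cells and 619 in LacZ cells and did not pass (limma, log2 difference -0.15, adjusted p = 0.41), but it was lower in RBMS3 cells at 90, 180 and 360 min by -0.62, -0.60 and -0.47 (adjusted p = 0.0014, 0.0017 and 0.0096). ADAM8 was lower, at 18.0 ± 4.28 in RBMS3 cells and 436 ± 126 in LacZ cells (a difference of -4.50, limma adjusted p = 2.1e-08), and RHBDL2, a rhomboid protease, was lower by -1.40 (adjusted p = 0.040). ADAM12 was higher, at 201 ± 63.4 in RBMS3 cells and 53.5 ± 9.38 in LacZ cells. RHBDF2, which encodes the carrier iRhom2 that brings ADAM17 to the cell surface, differed in its change over 360 min by -1.27 ± 0.221 (SE; adjusted p = 9.3e-04): it was at 58.3 ± 4.83 at 360 min against 157 ± 8.35 at 0 min in RBMS3 cells, and at 209 ± 11.6 against 233 ± 48.2 in LacZ cells. ADAM15 differed the other way, by 0.81 ± 0.185 (adjusted p = 0.0084).

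Of 23 genes that restrain or turn over the receptor 22 were tested, and 6 were higher and 5 lower at 0 min, with a median of 0.01, beside the 18.6% and 18.9% of all tested genes. Decorin (DCN), a matrix proteoglycan that binds EGFR, was higher at 168 ± 6.48 in RBMS3 cells and 1.15 ± 2.00 in LacZ cells. CBLC, a ubiquitin ligase of the CBL family, was lower at 2.73 ± 2.27 in RBMS3 cells and 54.9 ± 26.5 in LacZ cells. EPN1, an adaptor of receptor endocytosis, did not differ beyond the test at 0 min, but its change over 360 min differed by 0.66 ± 0.16 (SE; limma, adjusted p = 0.016). SOCS3 was higher at 92.1 ± 16.9 in RBMS3 cells and 28.4 ± 20.2 in LacZ cells (limma, adjusted p = 0.049), a call lost with scaling to ribosomal protein genes (0.078) or equal totals (0.052). ERRFI1, a feedback inhibitor of EGFR also called MIG6, fell further in RBMS3 cells, to 93.3 ± 24.1 at 360 min against 747 ± 26.4 at 0 min, than in LacZ cells, at 112 ± 4.99 against 447 ± 105, a difference in change of -1.06 ± 0.289 (SE; adjusted p = 0.028). With scaling to ribosomal protein genes the list's split at 0 min was 2 higher and 9 lower, beside 1338 and 3833 of all genes.

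Of 23 adaptors and kinases downstream of the receptor 22 were tested. Before actinomycin D 10 were higher in RBMS3 cells than in LacZ cells and 3 lower (median 0.14), beside 18.6% and 18.9% of all tested genes. The split became 6 and 5 with scaling to ribosomal protein genes, under which 1338 of all genes were higher and 3833 lower. PIK3R1, a regulatory subunit of PI 3-kinase, was at 1336 ± 66.9 in RBMS3 cells and 193 ± 51.8 in LacZ cells. The kinase AKT1 was at 688 ± 53.3 in RBMS3 cells and 367 ± 265 in LacZ cells, and the ERK-activating kinase MAP2K1 at 382 ± 16.5 in RBMS3 cells and 183 ± 119.6 in LacZ cells. Both were higher, by 1.42 and 1.41 on the log2 scale (limma, adjusted p = 0.029 and 0.0093), with a wide spread in LacZ cells, and the AKT1 call was lost with scaling to ribosomal protein genes (0.075). Of 22 transcripts known to be induced by ERK 18 were tested, and before actinomycin D 9 of these were lower and 2 higher in RBMS3 cells, with a median of -0.86 beside 0.01 over all tested genes, of which 18.9% were lower and 18.6% higher. The split became 10 lower and 1 higher with scaling to ribosomal protein genes. IER3 was at 1862 ± 148 in RBMS3 cells and 16943 ± 4166 in LacZ cells, PHLDA1 at 199 ± 18.8 in RBMS3 cells and 1521 ± 306 in LacZ cells, and SPRED2, an inhibitor of the pathway, at 25.6 ± 9.31 in RBMS3 cells and 112 ± 25.3 in LacZ cells. The 2 higher ones were SPRED1 (1.38, adjusted p = 9.8e-05) and EGR1 (1.03, adjusted p = 0.0499). ETV4, PHLDA1 and CCND1 differed between the lines in their change over 360 min, RBMS3 minus LacZ, by 1.55, 1.26 and 0.41 (limma, adjusted p = 9.1e-05, 0.0047 and 0.011). PHLDA1 fell in both lines and fell less in RBMS3 cells, with 45.5 ± 12.6 in RBMS3 cells and 142 ± 9.54 in LacZ cells at 360 min. From 0 to 360 min ETV4 went from 58.3 to 189 in RBMS3 cells and from 212 to 233 in LacZ cells. CCND1 went from 1421 to 2446 in RBMS3 cells and from 2600 to 3375 in LacZ cells.

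**Figure D5:**
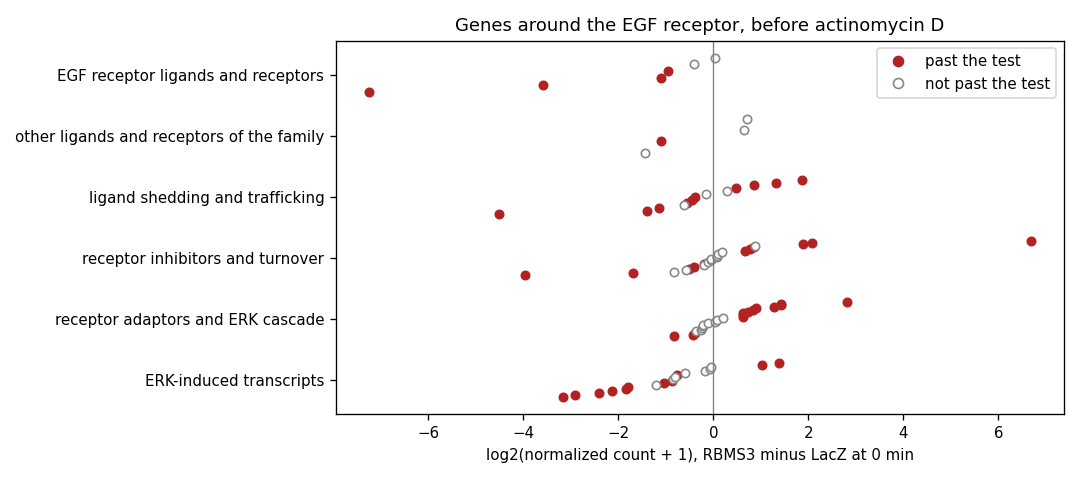
Difference between RBMS3 and LacZ cells at 0 min in log2(normalized count + 1) (horizontal axis) for the tested genes of each list (rows); every point is a gene, filled red where it passed an adjusted p of 0.05 and open grey where it did not. The receptor's ligands and receptors reach from -7.25 to 0.03, and the ERK-induced transcripts have a median of -0.86.

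The tested genes whose values over the 24 libraries ran most like a member's were found by Pearson correlation on the log2 scale, given as a description, since the points share 2 lines and 4 times. HBEGF ran close to MIR205HG (r = 0.985) and the epithelial factor GRHL2 (0.980). TGFA ran closest to PERP (0.978), TPD52L1 (0.974) and the tight junction gene CLDN7 (0.973). AREG ran closest to the basal epithelial factor TP63 (0.9751), NDRG1 (0.974) and SAA1 (0.973). EREG was nearest to PPL (0.888), GSDMD (0.866) and SLC20A1 (0.861), and EGFR to UNC13D (0.950), TINAGL1 (0.949) and ATAD3B (0.941). ERBB2 had no close neighbour, with ZFP69 first at 0.695. Among the members, HBEGF and AREG ran together at 0.956 and HBEGF and TGFA at 0.901, while EGFR and EREG were at 0.151.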

How the data were processed

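HMLE cells with RBMS3 or LacZ were sampled at 4 times in actinomycin D, 3 libraries a group. The submitters' processing notes name Salmon 1.4.0, Trim Galore 0.6.6 and DESeq2 1.32.0. Genome build and annotation: not given in the sources used here. Values were deposited by the authors as a normalized signal per gene and library, called the normalized count here. They also deposited estimated counts for 231288 transcripts per library, per the file headers. Those of 12 libraries were summed to genes (88.4% of transcripts matched) and rounded for edgeR 4.0.16; the other 12 files were not used because their recorded sample and their name disagreed.

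Each comparison used limma 3.58.1 (R 4.3.3, with trend, without robust variance). It was fitted to log2(normalized count + 1), a scale that understates changes of low genes, in a single model of all 8 groups. P-values were adjusted by Benjamini-Hochberg over the 12096 genes averaging 10 or more. Alternatives were other constants, filters, scalings, a replicate block, robust variance and each library left out. The members, gene lists and tests were chosen with earlier results of these data known. Named list genes are, for each list, up to 3 with the largest 0 min difference that passed and a higher group averaging 50 or more, for shedding, inhibitor and ERK-induced lists up to 3 more by the line difference in 360 min change, and 3 neighbours a member by correlation, of which 1 is not reported here; ADAM17, SPRED1, EGR1, ERBB3 and EPGN were named after their values were seen. Pentamers and motifs were counted in GENCODE 29 and RefSeq sequences.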

Additional observations from a re-analysis of the deposited data

Results flagged for a closer look

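A member is listed here where its change over time differed between the lines in limma's test of that difference. AREG fell more in RBMS3 cells than in LacZ cells, with a difference in log2 change, RBMS3 minus LacZ, of -0.37 at 90 min (adjusted p = 0.0499), -0.37 at 180 min (0.043) and -0.38 at 360 min (0.033). The change of EGFR was higher in RBMS3 cells than in LacZ cells, with a difference of 0.51 at 180 min (0.022) and 0.68 at 360 min (0.0021). The AREG calls were lost with scaling to ribosomal protein genes (adjusted p = 0.50, 0.34 and 0.20) and with no filter on low values (0.085, 0.075 and 0.059), at 90 and 180 min with equal totals (0.080 and 0.067), and at 90 min with robust variance (0.051). With 1 library left out they were lost in 20, 17 and 7 of the 24 fits. The EGFR call at 360 min passed under each alternative tried.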

How the results depend on the processing

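Over 96 member results, 2999 of 3174 alternative values kept direction and side of the threshold, 94 lost the call, 28 gained one and 53 changed sign. Of these 53, 3 had the main or the alternative value past the test, all with scaling to ribosomal protein genes: AREG in RBMS3 cells at 360 against 90 min (-0.27, adjusted p = 0.017) and EGFR in LacZ cells at 180 and 360 against 0 min (-0.050 and -0.32). In the other 50 neither value passed. With the same scaling AREG turned to -0.18 in LacZ cells and EGFR to -0.25 in RBMS3 cells at 360 against 90 min. TGFA in LacZ cells turned to -0.16, -0.29 and -0.27 at 90, 180 and 360 against 0 min and to -0.11 at 360 against 90 min, where EREG in LacZ cells turned to -0.16. ERBB2 turned to -0.27 and -0.067 between the lines at 0 and 90 min, to -0.25 and -0.16 in RBMS3 cells at 360 against 0 and 90 min, and to 0.20 for the line difference in its 90 min change. With equal totals AREG turned to -0.054 in RBMS3 cells and -0.0065 in LacZ cells and EGFR to -0.033 in RBMS3 cells at 360 against 90 min, TGFA to -0.066 in LacZ cells at 180 min, and ERBB2 to -0.011 between the lines at 90 min and -0.077 in RBMS3 cells at 360 min. EREG in RBMS3 cells at 360 against 90 min was 0.25 in edgeR on estimated counts.

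Leaving out 1 library at a time gave the other 31 sign changes. ERBB2 ranged from -0.25 to 0.34 and -0.27 to 0.18 between the lines at 0 and 90 min. In RBMS3 cells it ranged from -0.28 to 0.098, -0.24 to 0.42 and -0.13 to 0.53 at 90 and 360 against 0 min and 360 against 90 min. In LacZ cells it ranged from -0.37 to 0.22 and -0.90 to 0.028 at 90 and 180 against 0 min, and the line difference in its 90 min change from -0.33 to 0.26. EREG ranged from -0.73 to 0.083 between the lines at 0 min, -0.49 to 0.14 in RBMS3 cells at 360 against 90 min, and -0.45 to 0.15 and -0.078 to 0.52 in LacZ cells at 360 against 0 and 90 min. TGFA ranged from -0.022 to 0.16 in LacZ cells at 180 against 0 min, and at 360 against 90 min from -0.012 to 1.53 in RBMS3 cells and -0.22 to 1.3197 for the line difference in change. At 360 against 90 min HBEGF ranged from -0.079 to 0.00062 in LacZ cells and AREG from -0.067 to 0.028 for the line difference in change.

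Ribosomal scaling moved the median of all tested genes to -0.30 at 0 min between the lines, with 1338 higher and 3833 lower, against 2250 and 2284 in the main setting. The numbers of members called between the lines (4, 5, 5 and 5) and in RBMS3 cells against 0 min (3, 3 and 5) stayed within 1.5 times under each setting. In LacZ cells at 360 against 0 min (2 members) the count was 1 with no filter and 4 with ribosomal scaling. At 360 against 90 min (0 members) it was 1 in LacZ cells with ribosomal scaling, and in RBMS3 cells 2 with ribosomal scaling and 1 with equal totals. For the line difference in change, 1 member at 90 min became 2 with a constant of 10, a minimum mean of 50 or ribosomal scaling, and 0 with no filter, equal totals or robust variance. The 2 at 180 min became 1 with no filter or equal totals, and the 2 at 360 min became 1 with no filter or ribosomal scaling. The cause of these shifts was not tested.

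Leaving out 1 library at a time gave 1 to 2 members in LacZ cells at 360 against 0 min, 0 to 1 in RBMS3 cells at 360 against 90 min, and 0 to 1, 0 to 2 and 1 to 2 for the line difference in change at 90, 180 and 360 min. With the replicate block the counts were 4, 5, 5 and 5 between the lines at 0, 90, 180 and 360 min, and the block changed no other count of members. Over 84 pairs of same-numbered libraries from different groups, 36 of them from different times of 1 line, the deviations from the group means correlated at -0.11 to 0.12 with a median of 0.0016. The labels give the numbers no further meaning. Whether same-numbered libraries shared a culture or a batch is not given, and weak correlations of this kind cannot settle it. Depth limits BTC and, in RBMS3 cells, TGFA, which rest on few reads a library.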
